A study of Mus musculus with 2 samples.

Results

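The genes described here encode subunits of the respiratory chain and of ATP synthase, the enzymes of oxidative phosphorylation. They were given as a list of symbols, and all 53 were among the 17087 genes of the table. Of these, 13 are encoded in mitochondrial DNA (symbols beginning mt-) and 40 in the nucleus. Complex I has 7 mt- and 12 nuclear-encoded members here, complex II 2 nuclear-encoded members, complex III 1 and 5, complex IV 3 and 12, and complex V 2 and 9.

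The retinas came from male C57BL/6 mice and were sequenced cell by cell. Streptozotocin (STZ), a toxin of insulin-producing cells, was given intraperitoneally to the STZ mice, aged 3 to 5 weeks, at 55 mg/kg. Diabetes meant glucose over 300 mg/dL, and high glucose lasted 25 weeks. The control mice were labelled untreated. Cells of 3 retinas were pooled into 1 library per group, so there are no replicates, no test was possible and every difference is between these libraries. Streptozotocin, diabetes, library and pool cannot be told apart.

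In the respiratory chain, complexes I and II take electrons from NADH and succinate, complex III passes them to cytochrome c, and complex IV passes them to oxygen. Complexes I, III and IV pump protons, and complex V uses the proton gradient to make ATP. Complexes I, III, IV and V are built from products of both genomes, while complex II is wholly nuclear-encoded. The mt- genes are transcribed from a few promoters as long precursors that are cut into mRNAs, whereas each nuclear gene has a promoter of its own. Photoreceptors pack mitochondria into their inner segments and are among the heaviest users of oxygen in the body.

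Some neighbouring mt- genes share bases. mt-Atp8 stays with mt-Atp6, and mt-Nd4l with mt-Nd4, in 1 mRNA that carries both reading frames, so in 3' counts their separate levels do not reflect separate RNAs. The 2 stretches below are shown because the members mt-Atp8 and mt-Nd4l, both discussed further on, end inside the next gene. Lower case marks 15 bases on each side and capitals mark the bases that both genes share, read 5' to 3' on the plus strand of mitochondrial DNA (GRCm38, from the GENCODE M21 transcripts). mt-Atp8 and mt-Atp6 share 43 bases at chrM:7927-7969, and mt-Nd4l and mt-Nd4 share 7 bases at chrM:10167-10173.
mt-Atp8 into mt-Atp6, chrM:7912-7984: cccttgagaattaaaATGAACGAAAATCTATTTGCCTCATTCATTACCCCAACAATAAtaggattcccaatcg
mt-Nd4l into mt-Nd4, chrM:10152-10188: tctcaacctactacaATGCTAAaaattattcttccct
In addition mt-Atp6 and mt-Co3 share 1 base, and mt-Nd5 on the plus strand overlaps mt-Nd6 on the minus strand by 14 bases. How the authors' counting assigned reads in such overlaps, and whether it used strand, is not given in the sources used here. The counts of mt-Atp8, mt-Nd4l, mt-Nd5 and mt-Nd6 are therefore uncertain.

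For the nuclear-encoded members, 33 of 40 matched a promoter in the RefSeq table (GRCm38.p6), which covers 250 bases before to 50 bases after the gene start. NRF1, ETS factors and YY1 are known to bind promoters of respiratory genes. On either strand, GCGC, any base and TGCGC (NRF1) was in the windows of 7 of the 33 (21.2%), against 5.19% of all 27025 genes in the table. CCGGAAGT (ETS) was in 4 (12.1%), against 4.31% of all genes, and AAGATGGCG (YY1) was in 4 (12.1%), against 1.64%. Atp5h, a peripheral stalk subunit of complex V, and Ndufs6, a complex I subunit, are shown because each holds 2 of these motifs, in capitals. Both are on the minus strand and are read 5' to 3'.
Atp5h promoter, chr11:115419870-115420169: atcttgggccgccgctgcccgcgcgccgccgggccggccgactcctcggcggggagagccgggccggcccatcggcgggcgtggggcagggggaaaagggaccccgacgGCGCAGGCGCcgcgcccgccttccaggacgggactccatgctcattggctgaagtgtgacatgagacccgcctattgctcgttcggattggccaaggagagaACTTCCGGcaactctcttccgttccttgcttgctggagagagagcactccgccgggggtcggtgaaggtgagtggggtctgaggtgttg
Ndufs6 promoter, chr13:73328433-73328732: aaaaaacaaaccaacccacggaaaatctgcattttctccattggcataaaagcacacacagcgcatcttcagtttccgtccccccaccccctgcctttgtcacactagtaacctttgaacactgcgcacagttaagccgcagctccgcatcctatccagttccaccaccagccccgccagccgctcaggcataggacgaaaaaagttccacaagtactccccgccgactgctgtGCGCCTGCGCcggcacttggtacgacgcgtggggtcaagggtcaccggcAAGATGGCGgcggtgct
A match of letters is a description and says nothing about binding in these cells.

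There were 12393 STZ cells, at 2062 UMIs in the median cell, and 7169 control cells, at 3800 UMIs. Cells under 800 UMIs made up 21.6% of STZ and 5.19% of control cells. Cells with over 20% of their UMIs from mt- genes made up 28.5% of STZ and 25.7% of control cells. After removal of presumed doublets, 8058 STZ and 5053 control cells were at or below 20%, and these cells are described unless stated otherwise. The libraries shared 21 cell barcodes. Cells were clustered without the 53 genes and named from marker genes with the ending -like. The 8 classes compared each had at least 50 such cells in both libraries, from 212 STZ and 53 control amacrine-like cells to 1431 STZ and 1074 control cone bipolar-like cells. A further 2080 STZ and 274 control cells stayed unnamed, most of them in a cluster with 1759 STZ and 15 control cells at low depth.

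Levels are UMIs of a gene per 1000000 UMIs of the class (CPM). They count 3' ends and were not divided by transcript length, so they are compared between libraries and classes and not between genes. Intervals are 95% intervals and cover counting error only. More mitochondrial RNA per cell and less of the other RNA cannot be told apart in such shares.

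Among the cells kept, the mt- genes together took a larger share of the RNA in STZ than in control in all 8 classes. These cells were chosen by their mt- share, the quantity compared here, and the parts kept could differ. In rod bipolar-like cells 796 of 1734 were kept in STZ and 882 of 1438 in control. The parts were close in cone-like cells (874 of 1518 and 749 of 1318). In amacrine-like cells the larger part was kept in STZ (212 of 272 and 53 of 76). With all cells the log2 ratio was above 0 in 7 classes. In cone-like cells the share was 14.3% of UMIs in STZ and 12.8% in control, and in rod bipolar-like cells 15.2% and 12.8%. In rod-like cells it was 11.1% in STZ and 8.79% in control. In cone bipolar-like cells it was 11.3% in STZ and 9.04% in control. These 4 classes hold the photoreceptors and the neurons that receive from them, and their log2 ratios of STZ over control were 0.16, 0.25, 0.34 and 0.32 in the same order. In Müller glia-like cells the share was 10.3% in STZ and 9.56% in control, and in amacrine-like cells 9.38% and 9.01%. In pericyte or smooth muscle-like cells it was 10.1% in STZ and 9.08% in control. The log2 ratio in these 3 classes was 0.11, 0.06 and 0.15, the last close to the 0.16 of cone-like cells. The median over the 8 classes was 0.20, beside medians of all measured genes between -0.04 and 0.03. The amacrine-like ratio was -0.24 with all cells, -0.049 as a mean over cells and -0.037 with cells thinned to 500 UMIs, so the sign there depends on the processing. Clusters were also compared where they held 50 or more cells of each library. In the 17 such clusters of the classes compared, the log2 ratio of the summed mt- level was above 0, between 0.02 and 0.72. None was amacrine-like, as those clusters held 14 and 39 control cells. Endothelial-like and pericyte or smooth muscle-like cells each formed a single cluster, so their values repeat the class values. The log2 ratio was 0.28 and 0.31 in unnamed clusters 3 and 15, which held as many cells. Cluster 15 had few UMIs per cell, and 8 of 8 Müller glia markers led in it.

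Other RNA moved with the mt- share. Malat1, a long RNA that stays in the nucleus, was at 29211 CPM in STZ and 36005 CPM in control cone-like cells and at 17148 CPM and 26773 CPM in rod-like cells. Its log2 ratio was below 0 in 7 of the 8 classes, down to -0.64 in rod-like cells, and in endothelial-like cells it was 0.08. The rod markers of rod-like cells summed to 35308 CPM in STZ and 42716 CPM in control, and the Müller glia markers to 1497 CPM and 782 CPM. There the erythrocyte markers summed to 49.9 CPM in STZ and 2.33 CPM in control, and the median cell had 1183 UMIs in STZ and 1703 UMIs in control. The part of Malat1, depth and other cells' RNA in the mt- shares was not tested.

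The nuclear-encoded members together differed less. They took 2.50% of UMIs in STZ and 2.53% in control in cone-like cells, 2.70% and 2.58% in rod bipolar-like cells, and 2.73% and 2.42% in rod-like cells. In Müller glia-like cells they took 1.57% in STZ and 1.52% in control. The log2 ratio was between -0.02 in cone-like and 0.17 in rod-like cells, apart from 0.34 in endothelial-like cells, with a median of 0.06. Within the 17 clusters it was above 0 in 11 and below 0 in 6, between -0.11 and 0.34, and in unnamed clusters 3 and 15 it was 0.02 and 0.43. Rod-like cells were split over 2 clusters in unequal parts: cluster 12 held 59.8% of the rod-like cells in STZ and 39.9% in control. The members took 3.17% of UMIs in STZ and 3.00% in control in cluster 12 (log2 0.08), and 1.85% and 1.95% in cluster 10 (log2 -0.08). The rod-like class value thus lay above both cluster values, which differed in sign.

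**Figure D1:**
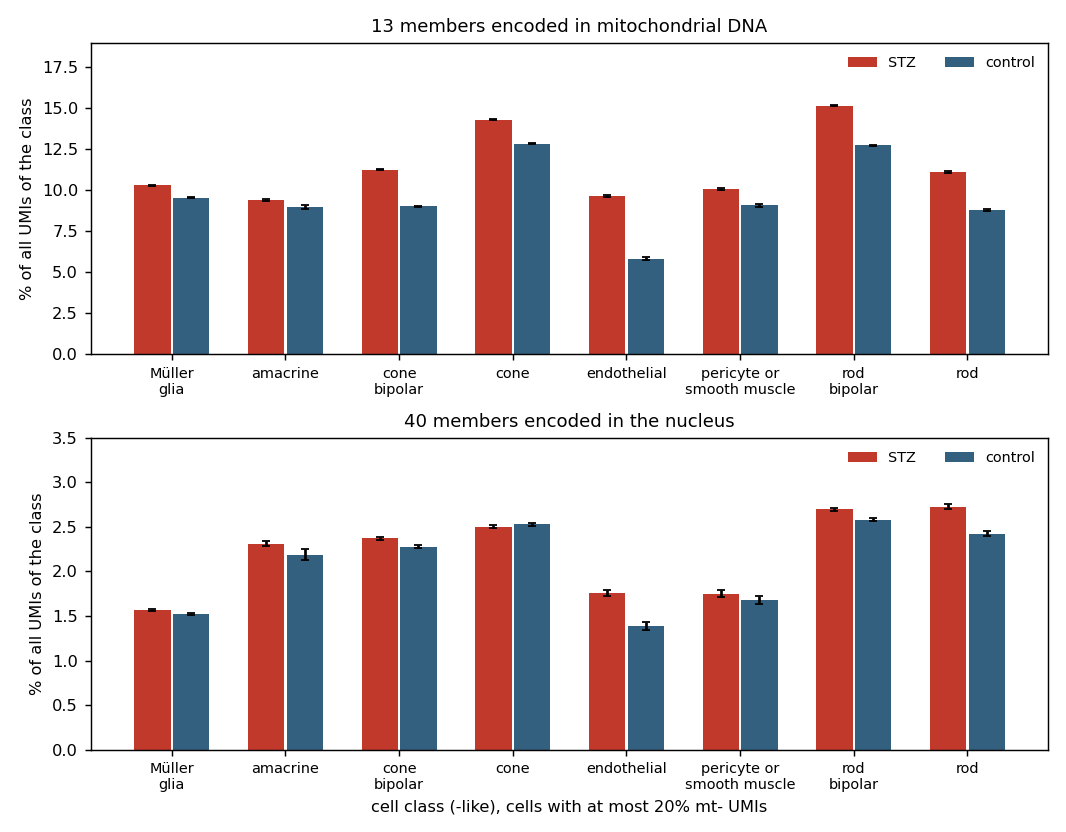
Summed level of the 13 mt- members (upper panel) and of the 40 nuclear-encoded members (lower panel) as % of all UMIs of each cell class, in cells with at most 20% mt- UMIs, for the STZ library (left bar of a pair) and the control library; error bars are 95% counting intervals. The mt- bars are higher in STZ in all 8 classes, while the nuclear-encoded bars nearly coincide outside endothelial-like and rod-like cells.

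The ratio of mt- to nuclear-encoded member UMIs does not depend on the total used for scaling, but these cells too were chosen by their mt- share. It was 5.72 in STZ and 5.08 in control for cone-like cells, 5.62 and 4.94 for rod bipolar-like cells, and 4.75 and 3.97 for cone bipolar-like cells. In amacrine-like cells, which had 53 control cells, it was 4.06 in STZ and 4.11 in control, with a log2 ratio of -0.02 (-0.07 to 0.03). In Müller glia-like cells it was 6.58 in STZ and 6.28 in control. Across the 8 classes the log2 ratio had a median of 0.17 and was above 0 in 7.

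Endothelial-like cells, from the lining of the retinal vessels, stood apart from the other classes. Their mt- share was 9.65% in STZ and 5.84% in control, a log2 ratio of 0.72 (0.70 to 0.75), and their nuclear-encoded members took 1.76% in STZ and 1.39% in control. Depth and other cells' RNA moved with this difference. The 406 STZ cells had a median of 944.5 UMIs and the 87 control cells 3151 UMIs. The summed endothelial markers were at 12606 CPM in STZ and 19172 CPM in control. The 8 Müller glia markers summed to 5943 CPM in STZ and 1617 CPM in control, where Kcnj10 was at 0. The 8 rod markers, all present in both libraries, summed to 2841 CPM in STZ and 854 CPM in control, and the erythrocyte markers to 6296 CPM in STZ and 3.40 CPM in control. Among cells with at least 1000 UMIs, 180 in STZ and 73 in control, the log2 ratio was 0.49 for the mt- genes and 0.23 for the nuclear-encoded ones. The part of other cells' RNA in the difference was not tested.

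Of 104 pairs of an mt- gene and a class, 11 were at least 1.5-fold higher in STZ (10.6%) and 3 at least 1.5-fold lower (2.88%), beside 9.39% higher and 8.04% lower over all 61144 measured pairs of a gene and a class. All 11 higher pairs were in endothelial-like cells, where 20.7% of measured genes were as much higher. With at least 1000 UMIs 1 mt- pair was higher, as with at least 500 genes and at most 10% mt-. At clustering resolution 0.5 there were 6. Shares of all genes were not computed under these settings. The 3 lower pairs were of genes with few UMIs or overlapping neighbours. mt-Nd6, a complex I subunit from the minus strand, was at 52.8 CPM in STZ and 97.0 CPM in control Müller glia-like cells. mt-Atp8, a small subunit of complex V, was at 102 CPM in STZ and 168 CPM in control amacrine-like cells, and at 90.9 CPM and 175 CPM in pericyte or smooth muscle-like cells. Single mt- genes in the 7 other classes therefore seldom reached 1.5-fold in either direction.

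What differed more clearly was the mix of mt- RNAs, given here as each gene's share of all mt- UMIs. These shares sum to the whole, so larger shares of some genes mean smaller shares of others. Among the complex I genes, mt-Nd2 had a lower share in STZ in 8 of 8 classes, with log2 ratios between -0.43 and -0.17 and counting intervals below 0 in all 8. In Müller glia-like cells mt-Nd2 made up 7.39% of mt- UMIs in STZ and 9.06% in control, and in cone-like cells 2.76% and 3.52%. mt-Nd4 and mt-Nd5, proton-pumping subunits of the membrane arm of complex I as mt-Nd2 is, went the same way. mt-Nd4 made up 5.13% of mt- UMIs in STZ and 6.57% in control cone-like cells, and its interval lay below 0 in 7 classes. mt-Nd5 made up 1.14% in STZ and 1.70% in control rod bipolar-like cells, and its interval lay below 0 in 6 classes, as did those of mt-Nd3 and mt-Nd4l. The counts of mt-Nd4l and mt-Nd5 are uncertain because of the overlaps given above, and mt-Nd4l lies on 1 mRNA with mt-Nd4.

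mt-Nd1 was the exception within complex I. This gene encodes a membrane-arm subunit beside the ubiquinone site and lies first among the protein genes after the ribosomal RNAs. In Müller glia-like cells it made up 8.63% of mt- UMIs in STZ and 7.21% in control. Its share was higher in STZ in 8 of 8 classes (log2 0.02 to 0.26), with intervals above 0 in 6. mt-Nd6 had few UMIs, and its share had an interval below 0 in 2 classes.

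The complex IV genes encode the catalytic core of cytochrome c oxidase. mt-Co1, which holds the site that reduces oxygen, made up 19.5% of mt- UMIs in STZ and 17.1% in control cone-like cells. Its interval lay above 0 in 5 classes. mt-Co2, which receives electrons from cytochrome c, made up 15.7% in STZ and 13.3% in control rod bipolar-like cells, with intervals above 0 in 6 classes and below 0 in 1. mt-Co3 stayed between -0.05 and 0.09 on the log2 scale. Of the complex V genes, mt-Atp6, part of the proton channel, had intervals above 0 in 6 classes with log2 ratios from -0.01 to 0.14, whereas mt-Atp8 had intervals below 0 in 7. These genes lie on 1 mRNA and the count of mt-Atp8 is uncertain, so their opposite signs do not reflect separate RNAs. mt-Cytb, the mt- gene of complex III, had intervals below 0 in 7 classes and above 0 in 1, with log2 ratios from -0.19 to 0.09. A smaller share did not always go with a lower level in CPM. Class medians of the log2 ratio in CPM were 0.13 for mt-Cytb, 0.02 for mt-Nd2 and 0.001 for mt-Nd3. They were 0.09 for mt-Nd6, -0.09 for mt-Nd4, -0.15 for mt-Nd4l, -0.17 for mt-Nd5 and -0.27 for mt-Atp8.

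**Figure D2:**
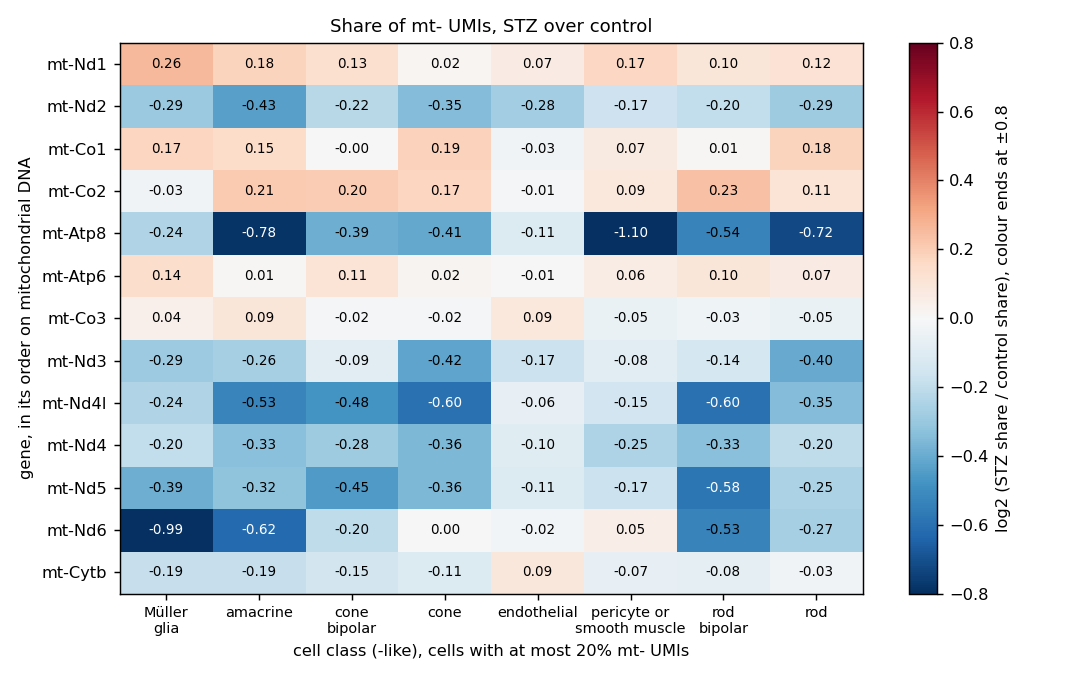
Log2 ratio (STZ over control) of each mt- gene's share of all mt- UMIs, with the 13 genes down the page in their order on mitochondrial DNA and the 8 cell classes across, in cells with at most 20% mt- UMIs; red is a larger share in STZ, blue a smaller one, and colours end at 0.8 in size. The mt-Nd2, mt-Nd3, mt-Nd4l, mt-Nd4, mt-Nd5 and mt-Atp8 rows are below 0 in every class, and the mt-Nd1 row is above 0 in every class.

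Summed over the complex, mt- RNA of complex IV therefore stood higher against that of complex I in STZ. In cone-like cells the 3 complex IV genes summed to 77802 CPM in STZ and 64771 CPM in control, while the 7 complex I genes summed to 20851 CPM and 22591 CPM. The ratio of complex IV to complex I UMIs was 3.73 in STZ and 2.87 in control cone-like cells, a log2 ratio of 0.38. As shares of all UMIs, the mt- genes of complex IV were thus higher and those of complex I slightly lower in STZ cone-like cells. In rod bipolar-like cells the ratio was 3.76 in STZ and 3.15 in control, with complex I sums of 22622 CPM and 21930 CPM. In rod-like cells it was 2.13 in STZ and 1.84 in control, and in amacrine-like cells 2.05 and 1.66. In Müller glia-like cells it was 1.44 in STZ and 1.28 in control, with complex IV at 39615 CPM and 35180 CPM. The ratio was higher in STZ in 8 of 8 classes, with a median log2 ratio of 0.20, down to 0.12 in endothelial-like (0.05 to 0.18) and in pericyte or smooth muscle-like cells (0.06 to 0.17). Its log2 ratio was also above 0 in the 17 clusters with enough cells (0.09 to 0.40), none of them amacrine-like. In unnamed clusters 3 and 15 it was 0.25 and 0.61. Its complex I sum includes mt-Nd4l, mt-Nd5 and mt-Nd6, whose counts are uncertain. This ratio was chosen after the data had been seen. The classes of a library are not replicates, and a difference between conditions and one between libraries cannot be told apart.

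**Figure D3:**
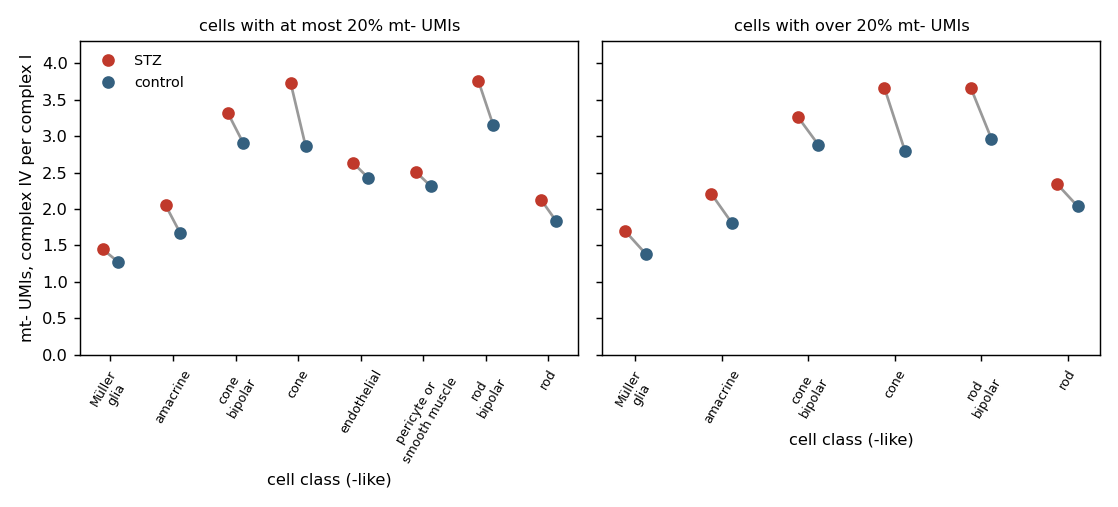
Ratio of complex IV to complex I mt- UMIs (no unit) by cell class, STZ (left point of a pair) and control, in cells with at most 20% mt- UMIs (left panel) and in cells over 20% (right panel, 6 classes with 20 or more cells of each library). The STZ point is above the control point in 8 of 8 and in 6 of 6 classes.

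Among the nuclear-encoded members, 39 of 40 were measured in all 8 classes, with Cox8b below the minimum of 10 CPM and 20 UMIs. Of their 312 pairs with a class, 9 were at least 1.5-fold higher in STZ (2.88%) and 0 were as much lower, against 9.39% and 8.04% of all pairs. The count of higher pairs was 33 (with 3 lower) when cells were thinned to 500 UMIs, 20 with median-of-ratios scaling, 18 as a mean over cells, 14 when weighted to one mt- share distribution, and 2 with at least 500 genes and at most 10% mt-. Shares of all pairs were not computed under these settings, so these counts cannot be set against 9.39% and 8.04%. The nuclear-encoded members are abundant, and of all pairs at 50 CPM or more 5.9% were higher and 6.11% lower. Without endothelial-like cells, 3 of 273 pairs were higher. By sign, 207 pairs were above 0 and 105 below, whatever their size, with counting intervals above 0 in 94 and below 0 in 33. Without endothelial-like cells, 171 were above 0 and 102 below, with intervals above 0 in 78 and below 0 in 32. Signs and intervals were not counted over all measured pairs of a gene and a class. Above 0 in all 8 classes were 9 of the 39, Ndufa6, Ndufa4, Ndufb9, Uqcr10, Cox4i1, Cox5b, Atp5a1, Atp5h and Sdhb, and 0 were below 0 in all. Of 4124 genes measured in all 8 classes, 5.55% were above 0 and 4.61% below 0 in every class.

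In complex I, Ndufb9, an accessory subunit of the membrane arm, had the highest class median (log2 0.36). It was at 647 CPM in STZ and 458 CPM in control rod bipolar-like cells, 704 CPM and 493 CPM in rod-like cells, and 681 CPM and 518 CPM in cone bipolar-like cells. Its log2 ratio lay between 0.16 and 0.51, above 0 in 8 of 8 classes. Ndufv3, an accessory subunit of the NADH-oxidising end, was at 686 CPM in STZ and 456 CPM in control rod bipolar-like cells and at 252 CPM and 133 CPM in endothelial-like cells. In pericyte or smooth muscle-like cells it was at 193 CPM in STZ and 209 CPM in control. Ndufc1, an accessory membrane subunit, went the other way in 7 of 8 classes. It was at 302 CPM in STZ and 376 CPM in control cone-like cells (log2 -0.32) and at 355 CPM and 423 CPM in rod bipolar-like cells. Ndufa13, an accessory subunit also known as GRIM-19, was at 560 CPM in STZ and 605 CPM in control Müller glia-like cells, with log2 ratios from -0.24 to 0.04. Ndufa6 was at 346 CPM in STZ and 261 CPM in control rod-like cells, but at 241 CPM and 234 CPM in cone-like cells. Ndufa2 was at 414 CPM in STZ and 291 CPM in control amacrine-like cells, and Ndufa1 at 210 CPM and 249 CPM in cone bipolar-like cells. As a group, the 12 nuclear-encoded complex I members had class medians from -0.03 to 0.24, with 2 pairs at 1.5-fold.

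Complex II, which also works in the citric acid cycle, was represented by its iron-sulphur subunit Sdhb and its membrane anchor Sdhd. Sdhb was at 155 CPM in STZ and 86.8 CPM in control amacrine-like cells, a log2 ratio of 0.83 with a wide interval (0.10 to 1.66) because the control class is small. In cone-like cells it was at 112 CPM in STZ and 108 CPM in control, and in rod-like cells Sdhd was at 62.2 CPM in STZ and 65.3 CPM in control. In endothelial-like cells Sdhb was at 123 CPM in STZ and 78.3 CPM in control, with an interval that includes 0 (log2 0.65, -0.03 to 1.39).

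The 5 nuclear-encoded members of complex III are small supporting subunits of the cytochrome bc1 complex. Their class medians lay between -0.09 and 0.10 outside endothelial-like cells, where the median was 0.36. Uqcrh was at 1143 CPM in STZ and 971 CPM in control rod-like cells, but at 827 CPM and 985 CPM in rod bipolar-like cells and at 536 CPM and 679 CPM in amacrine-like cells. Uqcr11 was at 348 CPM in STZ and 419 CPM in control rod bipolar-like cells and at 235 CPM and 301 CPM in amacrine-like cells. Uqcr10 reached 1.5-fold in endothelial-like cells (355 CPM in STZ and 214 CPM in control). Uqcrb was at 747 CPM in STZ and 790 CPM in control rod-like cells, and Uqcrq at 306 CPM and 365 CPM in pericyte or smooth muscle-like cells. Members of this complex thus differed in both directions, also within a class.

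Complex IV held several of the members that were above 0 throughout. Cox5b, an accessory subunit of cytochrome c oxidase, was at 673 CPM in STZ and 505 CPM in control rod bipolar-like cells, 840 CPM and 635 CPM in rod-like cells, and 654 CPM and 566 CPM in cone-like cells. Its log2 ratio lay between 0.21 and 0.44 in the 8 classes. Cox4i1, a regulatory subunit, was at 1965 CPM in STZ and 1635 CPM in control rod bipolar-like cells, but at 1323 CPM and 1307 CPM in cone-like cells. Cox6a1 was at 553 CPM in STZ and 473 CPM in control cone-like cells, and Cox5a at 239 CPM and 175 CPM in pericyte or smooth muscle-like cells. Cox8a, a small membrane subunit, was lower in cone-like cells, at 2296 CPM in STZ and 2902 CPM in control (log2 -0.34), and higher in endothelial-like cells, at 1064 CPM and 640 CPM. In rod bipolar-like cells it was at 2357 CPM in STZ and 2363 CPM in control. The cone-like value of Cox8a was the lowest of the 39 members in that class, against a class median of -0.02.

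Ndufa4, named for complex I and now placed with complex IV, had the largest span over classes of the 39 measured nuclear-encoded members. It was at 3051 CPM in STZ and 2708 CPM in control rod-like cells, 2813 CPM and 2697 CPM in rod bipolar-like cells, and 1904 CPM and 1648 CPM in cone-like cells. In pericyte or smooth muscle-like cells it was at 323 CPM in STZ and 203 CPM in control (log2 0.67), where the rod markers summed to 1269 CPM in STZ and 876 CPM in control and the Müller glia markers to 673 CPM and 287 CPM. The part of other cells' RNA in that value was not tested. The highest class stood 9.45-fold above the lowest in STZ and 13.3-fold in control. It was above 0 in all 8 classes, down to 0.06 in rod bipolar-like cells.

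Complex V members differed in both directions. Atp5g1, which encodes a c subunit of the rotating ring, was at 1156 CPM in STZ and 943 CPM in control cone-like cells, 682 CPM and 526 CPM in rod-like cells, and 338 CPM and 194 CPM in endothelial-like cells. In amacrine-like cells it was at 296 CPM in STZ and 327 CPM in control. Atp5a1, the alpha subunit of the catalytic head, was above 0 in 8 of 8 classes, for example at 467 CPM in STZ and 400 CPM in control rod bipolar-like cells. Atp5b, the beta subunit that carries the catalytic sites, was at 1297 CPM in STZ and 1335 CPM in control cone-like cells and at 965 CPM and 904 CPM in rod bipolar-like cells. Atp5h was at 1172 CPM in STZ and 1144 CPM in control rod bipolar-like cells and at 720 CPM and 702 CPM in Müller glia-like cells. Atp5e, the epsilon subunit of the central stalk, was at 570 CPM in STZ and 708 CPM in control rod bipolar-like cells (log2 -0.31), with a class median of -0.16. Atp5j2 was at 377 CPM in STZ and 417 CPM in control Müller glia-like cells, and Atp5j at 655 CPM and 786 CPM in endothelial-like cells.

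**Figure D4:**
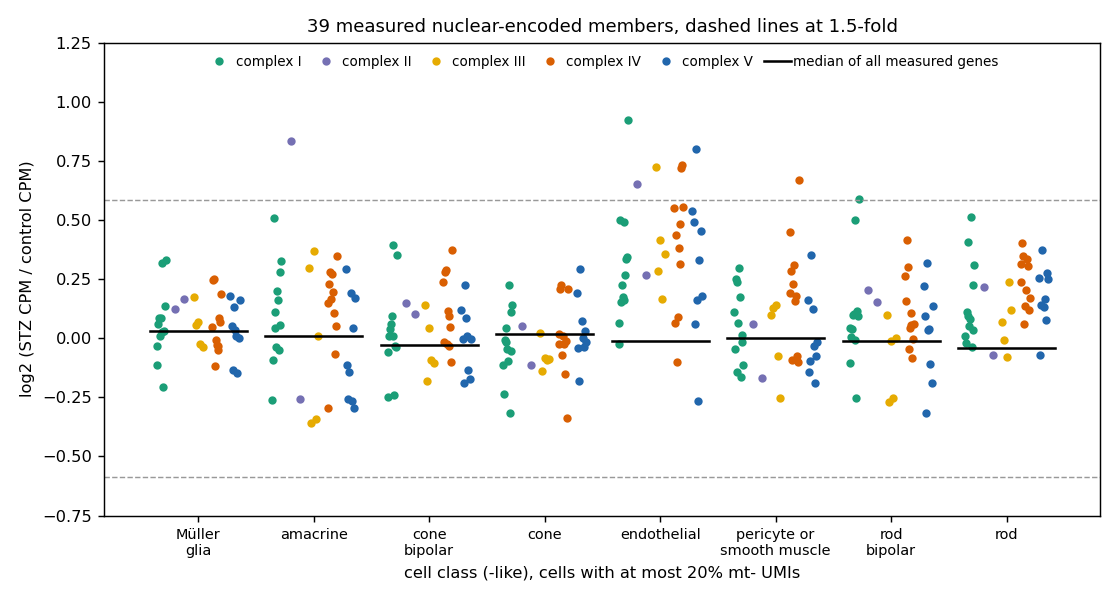
Log2 ratio (STZ CPM over control CPM) of the 39 measured nuclear-encoded members in each cell class, coloured by complex, in cells with at most 20% mt- UMIs; black lines are the median of all measured genes in the class and dashed lines mark 1.5-fold. Points lie near the black line in cone-like and cone bipolar-like cells and mostly above it in endothelial-like and rod-like cells.

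Over all measured genes, 5.14% were at least 1.5-fold higher and 3.1% lower in Müller glia-like cells, 16.1% and 13.4% in amacrine-like cells, 4.63% and 4.35% in cone bipolar-like cells, and 5.34% and 3.17% in cone-like cells. The shares were 20.7% higher and 18.2% lower in endothelial-like cells, 13.8% and 10.2% in pericyte or smooth muscle-like cells, 5.29% and 6.08% in rod bipolar-like cells, and 8.76% and 9.67% in rod-like cells. Against these shares, the nuclear-encoded members had 6 pairs higher in endothelial-like cells, 1 each in amacrine-like, pericyte or smooth muscle-like and rod bipolar-like cells, and 0 in the other 4 classes. In each class the share of members at least 1.5-fold higher was thus below that of all genes at 10 CPM or more. The members are abundant, and over all pairs the share higher was 9.39%, or 5.9% at 50 CPM or more. Shares by class for genes as abundant as the members were not computed. By sign, 33 of the 39 members were above 0 in rod-like cells (median 0.14, all genes -0.04) and 27 in rod bipolar-like cells (median 0.06, all genes -0.01). In cone-like cells 15 were above 0 (median -0.02, all genes 0.02). In endothelial-like cells 36 were above 0 (median 0.34, all genes -0.01). In rod-like cells the clusters 12 and 10 differed in sign for the summed level and in their shares of the 2 libraries, as given above.

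Several subunits have forms that only some cell types use. Cox8b, known from heart and muscle, was at most at 9.12 CPM in the 8 classes. In pigment epithelium-like cells, with 131 STZ and 47 control cells and therefore outside the 8, it was at 439 CPM in STZ (115 UMIs) and 1005 CPM in control (81 UMIs), a log2 ratio of -1.19 (-1.62 to -0.76). In that class 20% of all measured genes were at least 1.5-fold lower.

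Cox4i2, a form of Cox4i1 that is linked to low oxygen, was at 1048 CPM in STZ and 1291 CPM in control Müller glia-like cells and at 755 CPM and 932 CPM in pericyte or smooth muscle-like cells. Its log2 ratio was -0.30 in both. In endothelial-like cells Cox4i2 was at 126 CPM in STZ and 51.1 CPM in control, the class in which Müller glia markers were also higher in STZ. Cox4i2 was between 5.47 and 66.3 CPM in the neuron classes.

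Ndufa4l2, a relative of Ndufa4 that is induced at low oxygen, was largely found in pericyte or smooth muscle-like cells, at 1772 CPM in STZ and 2020 CPM in control (log2 -0.19). That is the class in which Ndufa4 was lowest. Ndufa4l2 was at 80.9 CPM in STZ and 51.1 CPM in control endothelial-like cells and at most at 6.84 CPM elsewhere. Cox7a1 was at 35.5 CPM in STZ and 13.2 CPM in control rod-like cells.

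The other genes of the pathway were taken from lists chosen for their function. Of 24 further complex I subunits, measured in every class, 0, 2, 0, 0, 3, 0, 0 and 1 were at least 1.5-fold higher in Müller glia-like, amacrine-like, cone bipolar-like, cone-like, endothelial-like, pericyte or smooth muscle-like, rod bipolar-like and rod-like cells, and 0 were as much lower in any. Of all measured genes, 16.1% were as much higher in amacrine-like, 20.7% in endothelial-like and 8.76% in rod-like cells. The class medians of the 24 subunits lay between -0.02 and 0.32. Of 17 further subunits of complexes II to V with cytochrome c, not all were measured in every class. Among those measured in a class, 5 were higher in endothelial-like cells, 1 in rod bipolar-like cells and 1 in rod-like cells, and 0 were lower in any class. The shares of all genes as much higher there were 20.7%, 5.29% and 8.76% in the same order. The class medians of this list lay between -0.08 in cone-like and 0.44 in endothelial-like cells and were above 0 in 6 of 8 classes.

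Among these complex I subunits, Ndufb4 was at 413 CPM in STZ and 257 CPM in control rod-like cells (log2 0.68) and was above 0 in all 8 classes, as was Ndufa11, at 358 CPM and 240 CPM in rod bipolar-like cells.

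Atp5g3 encodes the same c subunit protein as Atp5g1 from another gene. It was at 534 CPM in STZ and 434 CPM in control rod bipolar-like cells and above 0 in all 8 classes, between 0.08 and 0.64. Cycs, cytochrome c itself, went the other way in 7 of 8 classes. Cycs was at 200 CPM in STZ and 263 CPM in control cone-like cells and at 156 CPM and 211 CPM in rod bipolar-like cells, with a class median of -0.33.

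The genes that build and serve the chain differed in both directions. Of 45 assembly factors in the table, not all were measured in every class. Among those measured in a class, up to 6 were at least 1.5-fold higher and up to 8 lower, both in amacrine-like cells. Of all measured genes, 16.1% were higher and 13.4% lower there. In endothelial-like cells 4 assembly factors were higher and 0 lower, beside 20.7% and 18.2% of all genes. In cone-like cells 2 were higher and 3 lower, beside 5.34% and 3.17%. Coa7 was at 23.2 CPM in STZ and 13.4 CPM in control cone bipolar-like cells, with a median of 0.48 over 6 classes, and Acad9 at 13.5 CPM and 21.5 CPM in cone-like cells, with a median of -0.47. Cox19, a copper-handling assembly factor of complex IV, was below 0 in all 8 classes, with 38.3 CPM in STZ and 64.8 CPM in control cone-like cells. Among the genes of mitochondrial DNA maintenance and transcription, class medians ran from -0.28 to 0.34. Polg, the mitochondrial DNA polymerase, was below 0 in the 6 classes where it was measured, with 76.2 CPM in STZ and 109 CPM in control Müller glia-like cells (log2 -0.51). Trmt10c and Mterf1a of the same list had medians of 0.40 and 0.27. In cone bipolar-like cells Trmt10c was at 29.1 CPM in STZ and 21.8 CPM in control, and Mterf1a at 17.4 CPM and 11.3 CPM.

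Of 9 regulators of mitochondrial biogenesis, not all were measured in every class. Among those measured in a class, 2 were higher and 1 lower in amacrine-like cells, and 2 were higher in pericyte or smooth muscle-like cells. In rod bipolar-like cells 1 was higher, and 0 reached 1.5-fold in the other classes. Beside these counts, 16.1% of all measured genes were higher and 13.4% lower in amacrine-like cells. The shares higher were 13.8% in pericyte or smooth muscle-like and 5.29% in rod bipolar-like cells. Nrf1, whose motif is described above, had few UMIs, at 28.8 CPM in STZ and 22.8 CPM in control cone-like cells. Ppargc1a, a coactivator of these regulators, was at 135 CPM in STZ and 126 CPM in control cone-like cells. Of 78 mitochondrial ribosomal protein genes, class medians lay between -0.09 and 0.16. Mrps25, of the small subunit, was below 0 in all 8 classes, with 57.8 CPM in STZ and 104 CPM in control cone-like cells, while Mrps18b was at 41.8 CPM and 27.8 CPM there. The TCA cycle list had class medians from -0.11 to 0.44, the highest again in endothelial-like cells.

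Cells with a large mt- share differ in their other RNA as well, so the nuclear-encoded members were also set against non-mt- UMIs within steps of mt- share. In cone-like cells between 10 and 15% mt-, they made up 29015 per 1000000 non-mt- UMIs in STZ and 28881 in control. Between 30 and 40% they made up 15333 in STZ and 14079 in control, and above 40% 12869 and 12358. In high-mt- cone-like cells the members thus took a smaller share of the non-mt- UMIs in both libraries. Malat1 was at 34841 per 1000000 in STZ and 40908 in control between 10 and 15%, and at 61234 and 76158 above 40%. Ribosomal protein RNA was at 58891 in STZ and 53389 in control between 10 and 15%, and at 35026 and 34527 above 40%. The steps also differed in their clusters. Before doublet removal, cone-like cluster 0 had a median mt- share of 37.1% in STZ and 38.9% in control, at 1657.5 and 1721.5 UMIs. The median mt- share was 15.5% and 13.2% in cluster 1 and 15.6% and 13.6% in cluster 11. The part of the clusters in these steps was not tested.

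In rod bipolar-like cells the nuclear-encoded members were higher in STZ between 5 and 30% mt- and nearly level over that range. They were at 31594 per 1000000 in STZ and 29748 in control between 10 and 15%, and at 32403 and 29430 between 20 and 30%. Above 40% they were at 14286 in STZ and 14178 in control. Before doublet removal, rod bipolar-like cluster 5 had a median mt- share of 36.5% in STZ and 46.0% in control, against 19.7% and 15.3% in cluster 4. The part of these clusters was not tested. In cone bipolar-like cells the libraries parted between 15 and 20%, at 26038 in STZ and 17341 in control, where Malat1 was at 41693 and 68774. In Müller glia-like cells the members were at 25313 in STZ and 21838 in control between 20 and 30%, against 18278 and 17729 between 10 and 15%. Between 20 and 30% Malat1 was at 28840 in STZ and 68949 in control there, and ribosomal protein RNA at 145466 and 131212.

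**Figure D5:**
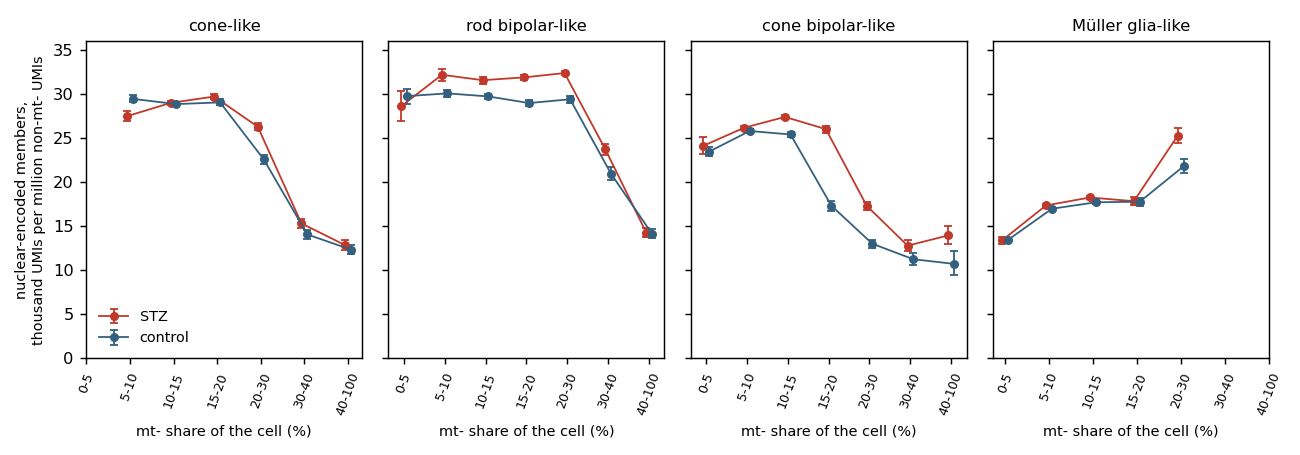
Nuclear-encoded members per 1000000 non-mt- UMIs (vertical axis, in units of 1000) by the mt- share of the cell (horizontal axis, in %) in 4 cell classes, STZ and control, for steps with at least 20 cells; error bars are 95% counting intervals. In cone-like, rod bipolar-like and cone bipolar-like cells both curves drop at high mt- share, in cone bipolar-like cells earlier in control, and in Müller glia-like cells both end higher.

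In the cells over 20% mt-, 3106 in STZ and 1705 in control, the libraries differed in how far the mt- share went. Cells over 40% made up 499 of these in STZ and 502 in control. Because the cells were chosen by their mt- share, their ratio of mt- to nuclear-encoded UMIs depends on that spread and is given as a description. Its log2 ratio lay between -0.73 and -0.03 in the 6 classes that kept 20 or more cells of each library, of which amacrine-like cells, with 60 in STZ and 23 in control, had the lowest value. The nuclear-encoded members had log2 ratios of 0.05 to 0.51 there (median 0.32), and 36 of 228 pairs reached 1.5-fold higher and 1 lower, beside 13.5% and 9.17% of all pairs. The complex IV to complex I ratio kept its sign, at 3.67 in STZ and 2.80 in control cone-like cells and at 3.66 and 2.97 in rod bipolar-like cells, with a median log2 ratio of 0.29. With all cells together, the summed mt- level had a median of 0.18 and was below 0 in amacrine-like cells (-0.24), while the nuclear-encoded level was above 0 in 8 of 8 classes (0.01 to 0.34).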

How the data were processed

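The values used are the raw UMI counts that the authors deposited (17087 genes, 19562 cells, every value whole). The ending of a cell's name gave its library. Cell Ranger 3.0.1, Seurat 3.0 and mm10 are named per the submitters' processing notes, and 10x Chromium 3' version 3 libraries per the labels' protocols. Settings are not given in the sources used here. No cell had over 2999 genes or under 499 UMIs, so a filter before deposit is visible.

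Scrublet through scanpy 1.11.5 scored doublets; its automatic threshold called 0.00807% of STZ and 1.02% of control cells, so the top scores at 0.8% per 1000 cells were removed in both (1229 STZ and 411 control cells). Clustering left out the members and used 2000 variable genes, log values scaled within library, 30 components, 15 neighbours and Leiden resolution 1.0. A cluster took a name from at least 3 leading markers (in 10% of its cells, 1.5-fold over the rest and 25% of the highest cluster). The name was withheld where another class had more markers among the top 10 genes. It was also withheld where UMIs were low and no own marker was among them. Cluster 15 stayed unnamed by the last rule although 8 of 8 Müller glia markers led, at a median of 1155 UMIs in STZ and 1254.5 in control. Counts were summed per class and library and divided by all its UMIs; a count of 0 was set to 3 in ratios. A gene was measured at 10 CPM and 20 UMIs over both libraries, and higher or lower at 1.5-fold. For mt- to nuclear-encoded UMIs and complex IV to complex I UMIs, the intervals of the log2 ratios are normal approximations. The others are exact Poisson, exact binomial (Clopper-Pearson) or conditional binomial, and all are at 95%. The code for the ratio between libraries and its conditional binomial interval was run on simulated Poisson counts. Such counts follow the model of the interval, so the run checks the code and not how well the intervals hold for these data. Python 3.11.15, numpy 2.4.6, scipy 1.17.1 and pandas 2.3.3 were used.

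The members, gene lists and tests were chosen with earlier results of these data known. All mt- members were named, the 2 nuclear-encoded members highest and lowest in each class, the nuclear-encoded member with most UMIs in each complex, fixed isoforms, and of further lists up to 3 genes with the largest class medians in size. Members above 0 in all classes, Ndufc1, Atp5e, Atp5b and the clusters described were chosen after values had been seen. Not every gene that this rule selects is named.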

Additional observations from a re-analysis of the deposited data

How the results depend on the processing

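Values are STZ over control. Medians over classes of the log2 ratio were 0.20 for the mt- level, 0.06 for the nuclear-encoded level, 0.17 for their ratio and 0.20 for complex IV per complex I. Pairs past 1.5-fold were 11 higher and 3 lower for mt- genes and 9 higher and 0 lower for nuclear-encoded members. The share of all genes past this fold was computed for the main setting, all cells, cells over 20% mt- and a minimum of 50 CPM. Counts under the other settings have no such share beside them. With all cells the mt- level was 0.18, the ratio 0.13 and mt- pairs lower 7. With at least 500 genes and at most 10% mt- UMIs the values were 0.12 for the mt- level, 0.035 for the nuclear-encoded level and 0.11 for their ratio, with 1 mt- pair higher, 2 nuclear-encoded pairs higher and 1 lower. With at least 1000 UMIs 1 mt- pair was higher, and with doublets kept the mt- level was 0.22. With nuclear-encoded UMIs as the total the mt- level was 0.23 and the nuclear-encoded level 0.089. Median-of-ratios scaling gave 0.23 and 0.094, with 20 nuclear-encoded pairs higher. The mean over cells gave a nuclear-encoded level of 0.10, a ratio of 0.14 and 18 nuclear-encoded pairs higher. Thinned to 500 UMIs, the mt- level was 0.21, the nuclear-encoded level 0.094 and complex IV per complex I 0.23, with 1 mt- pair lower, 33 nuclear-encoded pairs higher and 3 lower. Weighting to one mt- share distribution gave 0.11 for the nuclear-encoded level and 14 pairs higher. At resolution 0.5, 6 mt- pairs were higher. With no minimum on low genes 3 nuclear-encoded pairs were lower. At 2-fold, mt- pairs were 0 higher and 0 lower and nuclear-encoded pairs 0 higher.

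In cells over 20% mt- only, a setting added after the data were seen, the mt- level was -0.087, the nuclear-encoded level 0.32, the ratio -0.40 and complex IV per complex I 0.29. There 0 mt- pairs were higher and 9 lower, and 36 nuclear-encoded pairs were higher and 1 lower. The cause of these shifts was not tested.

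Complex IV per complex I was above 0 in every class under all 10 alternatives run for it, down to 0.035 at 10% mt-. The mt- level was below 0 in 1 class with all cells, with the mean over cells and thinned, and in 3 of 6 classes over 20% mt-. Among the class values of the summed levels and ratios under the alternatives, 191 stayed within the counting interval of the main value and 161 moved beyond it. Single members were not compared in this way.

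No paired analysis was possible because each group has 1 library. Leaving out a library leaves no comparison. Depth limits the small classes: amacrine-like cells had 53 control cells and endothelial-like cells 87. Free RNA could not be modelled from the deposited cells.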

Other observations

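In microglia-like cells, 104 in STZ and 38 in control, the mt- genes took 6.95% of UMIs in STZ and 5.63% in control, and the nuclear-encoded members 1.22% and 1.07%. Microglia are the resident immune cells of the retina. In pigment epithelium-like cells, 131 in STZ and 47 in control, the mt- genes took 7.20% in STZ and 3.89% in control (log2 0.89), and the nuclear-encoded members 2.51% and 2.75% (log2 -0.13). The ratio of mt- to nuclear-encoded UMIs there was 2.87 in STZ and 1.41 in control. Both classes had under 50 control cells and stood outside the comparison.

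The class in which a nuclear-encoded member was lowest differed between the libraries. Of the nuclear-encoded members, 18 were lowest in Müller glia-like cells in STZ and 11 in control, and 7 were lowest in endothelial-like cells in STZ and 19 in control. Rod-like cells were highest for 13 members in STZ and 6 in control, and rod bipolar-like cells for 8 in STZ and 9 in control. Rod-like cluster 12, where nuclear-encoded members took 3.17% of UMIs in STZ and 3.00% in control, held 59.8% of rod-like cells in STZ and 39.9% in control, beside 1.85% and 1.95% of UMIs in cluster 10. The depth of endothelial-like cells also differed between the libraries. The part of either in this order was not tested.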
